A study of Mus musculus with 4 samples.

Results

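The 10 genes described here, Socs1, Socs3, Cish, Jak1, Jak2, Tyk2, Stat3, Stat5a, Stat5b and Stat6, encode proteins of the JAK, STAT and SOCS pathway and were picked by symbol from a table of 45777 mouse genes. All 10 were in the table and all 10 passed the filter on low counts. RNA-seq was made from MG5, a mouse microglial cell line whose genotype the labels give as wild-type. The cells were kept in a blend of 30% DMEM with serum and 70% supernatant of the astrocyte-like line A1. In 2 libraries, replicates 1 and 3, the cells had received 6OHA at 10 µM for 6 h. 6OHA is a code name for a compound that activates RXR, the retinoid X receptor. The other 2 libraries, replicates 1 and 2, are labelled untreated, with nothing said of a solvent. Nothing in the labels ties the libraries to different cultures, so p-values reflect a spread that may be technical.

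Many cytokine receptors have no enzyme of their own and carry Janus kinases (JAK1, JAK2, JAK3 and TYK2) on their inner side. A bound cytokine brings the kinases together, they phosphorylate the receptor, and STAT proteins that dock there are phosphorylated, pair up and enter the nucleus to switch on genes. Among these genes are Socs1, Socs3 and Cish, whose proteins bind the receptors or kinases and shut the signal down, so their transcripts are often read as a feedback output. In microglia and macrophages the pathway carries signals from interferons, interleukins 4, 6 and 10, and GM-CSF. RXR is a nuclear receptor that works in pairs with other nuclear receptors and has no direct place in this cascade. The comparison asks which of these transcripts differ between cells given 6OHA and untreated cells.

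STAT dimers typically bind the palindrome TTCNNNGAA, where N is any base. The windows below, from 250 bases before to 50 after an annotated start, are the ones among the members that hold it. Socs3 was the 1 member called lower, a call that did not hold in all settings. The windows shown are its own and that of Cish, the other feedback gene whose window has the palindrome. They come from the RefSeq promoter table of GRCm38.p6, run 5′ to 3′ on the gene's strand, and have the palindrome in capitals. Cish is on the plus strand at chr9:107296409-107296708, and Socs3 is on the minus strand at chr11:117969317-117969616.
Cish: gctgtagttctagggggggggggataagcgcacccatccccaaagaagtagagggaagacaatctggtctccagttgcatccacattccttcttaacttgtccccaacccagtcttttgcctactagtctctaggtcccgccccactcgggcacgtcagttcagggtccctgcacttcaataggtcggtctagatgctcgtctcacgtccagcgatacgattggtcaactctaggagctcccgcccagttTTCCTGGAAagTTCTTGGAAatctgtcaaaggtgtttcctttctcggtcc
Socs3: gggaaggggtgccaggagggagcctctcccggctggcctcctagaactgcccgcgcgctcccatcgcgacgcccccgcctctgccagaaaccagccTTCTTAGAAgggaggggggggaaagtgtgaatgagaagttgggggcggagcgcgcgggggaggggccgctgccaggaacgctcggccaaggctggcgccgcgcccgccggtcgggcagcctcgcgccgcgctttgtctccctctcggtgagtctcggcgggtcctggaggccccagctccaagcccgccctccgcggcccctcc

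The palindrome began at position -154 from the annotated start in Socs3 and at positions 1 and 12 in Cish, where TTCCTGGAA and TTCTTGGAA stand almost side by side. The Socs3 window lies inside the gene, which runs from 117966079 to 117970336 on the minus strand. It occurred in 2 of the 12 windows of the 10 members and in 8.30% of all 32851 windows in the table. The wider spacing TTCNNNNGAA, which STAT6 prefers, was in 0 of the 12 windows and in 6.95% of all windows. AGGTCA, the half-site of RXR and its partners, searched on both strands, was in 4 of the 12 windows (1 of Stat6, 1 of Stat5b and 2 of Stat5a) and in 16.3% of all. The windows of Stat5b, from 100822521, and Stat5a, from 100859406 and 100860234, also lie inside their genes. A match is a description of these letters and shows no binding.

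All 10 members were expressed in every library, and their levels per transcript length spanned a wide range. In TPM, a unit that corrects for length, the mean over the 4 libraries was highest for the kinase gene Jak1 at 129 ± 8.40 (SD, n = 4). Stat6, which carries interleukin 4 signals, followed at 75.2 ± 1.71 TPM and Stat3, which carries interleukin 6 and 10 signals, at 74.5 ± 1.57 TPM. Next came the kinase gene Tyk2 at 33.2 ± 3.37, the feedback inhibitor gene Socs3 at 29.6 ± 6.00 and Stat5b at 22.9 ± 1.20 TPM. The lowest were Jak2 at 12.9 ± 0.981, Stat5a at 10.9 ± 1.59, Cish at 6.60 ± 0.889 and Socs1 at 5.21 ± 0.807 TPM. The order held in all 4 libraries for most neighbours. Stat6 lay above Stat3 in 2 of 4 libraries, Jak2 above Stat5a in 3 and Cish above Socs1 in 3, so these pairs did not differ beyond their spread. Tyk2 lay above Socs3, and Socs3 above Stat5b, in each library, although the ranges of the neighbours overlap across libraries.

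**Figure D1:**
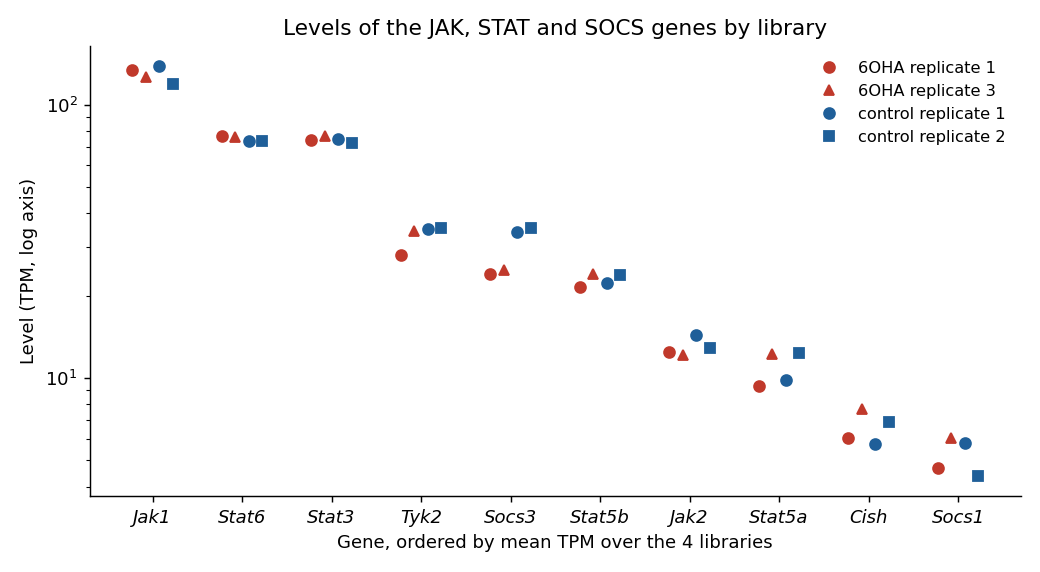
Level in TPM (log axis) of each gene in each of the 4 libraries, with genes ordered by their mean. Jak1 lies at 119 to 138 TPM and Socs1 at 4.39 to 6.03 TPM, and the red 6OHA points of Socs3, at 24.01 and 24.8 TPM, lie below its blue control points, at 34.2 and 35.3 TPM, as do, by narrower gaps, those of Tyk2 (28.2 and 34.3 against 35.0 and 35.3 TPM) and Jak2 (12.4 and 12.1 against 14.3 and 12.9 TPM).

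Within each protein family the shares of the members varied between libraries. By SD over the 4 libraries, the spread among the members was widest for Socs3, at 4.34 percentage points, and next for Jak1, at 2.93. Of the summed TPM of Jak1, Jak2, Jak3 and Tyk2, Jak1 made up 60.9 to 67.6%, Tyk2 14.3 to 18.1% and Jak2 6.04 to 6.83%. Of the summed TPM of the STAT genes, Stat3 made up 22.8 to 25.7%, Stat6 23.2 to 25.6%, Stat5b 6.85 to 8.07% and Stat5a 2.96 to 4.10%. Among Cish and Socs1 to Socs7, Socs3 made up 19.3 and 19.5% in the 6OHA libraries against 24.8 and 28.2% in the controls. Cish and Socs1 stayed between 3.51 and 6.07% of that sum. The share of Jak2 was lower in both 6OHA libraries (6.31 and 6.04%) than in both controls (6.83 and 6.62%). The shares of Stat3 (23.6 and 25.7% against 23.5 and 22.8%) and Stat6 (24.4 and 25.6% against 23.2% in each control) were higher in both, and those of Jak1, Tyk2, Stat5a and Stat5b overlapped. These shares are descriptions and were not tested.

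Of the 10 members, 1 fell with 6OHA, 0 rose and 9 did not pass. The one that fell was Socs3, whose protein blocks JAK1, JAK2 and TYK2 at the interleukin 6 receptor chain gp130 and at related receptors. Calls were made by edgeR's quasi-likelihood test over 14634 genes, at a Benjamini-Hochberg adjusted p under 0.05. Of all genes tested 0.629% fell and 1.39% rose, 2.02% in all. At an unadjusted p under 0.05 the same member stood alone, against 1591 of all genes, and DESeq2 and limma-voom also called 0 members higher. The median log2 fold change of the members was -0.01, beside -0.01 for all genes tested.

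Levels below are counts-per-million (CPM) of the TMM-scaled counts, which allow a gene to be compared between libraries but not with another gene. Values are given for replicates 1 and 3 of 6OHA and then for replicates 1 and 2 of control. Socs3 stood at 30.8 and 32.1 CPM with 6OHA, against 42.8 and 45.6 CPM in the controls. Both 6OHA libraries were lower than both controls, and libraries of a group lay close together. The means were 31.5 ± 0.862 in 6OHA and 44.2 ± 1.98 CPM in control (SD, n = 2), a 1.40-fold lower level (log2 fold change -0.49, SE 0.11, 95% interval -0.72 to -0.26, edgeR adjusted p = 0.0418). In bulk RNA, fewer cells that express a gene and less of its RNA per cell cannot be told apart.

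The size of the Socs3 difference was steadier than its call. Over 15 other settings the log2 fold change ran from -0.55 to -0.39, and the adjusted p was under 0.05 in 6 of them. The adjusted p rose to 0.323 when 6OHA replicate 1 was left out and to 0.206 when 6OHA replicate 3 was. It was 0.0511 with control replicate 2 left out and 0.0314 with control replicate 1 left out. The call was also lost with limma-voom (0.0529), with no filter on low counts (0.142), on FPKM and TPM values (0.0686 to 0.102) and with a per-library GC offset, where the log2 fold change was -0.39 (0.0752). It held with the other scalings, with the stricter filter, with edgeR's legacy mode and with the DESeq2 test (0.00633).

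**Figure D2:**
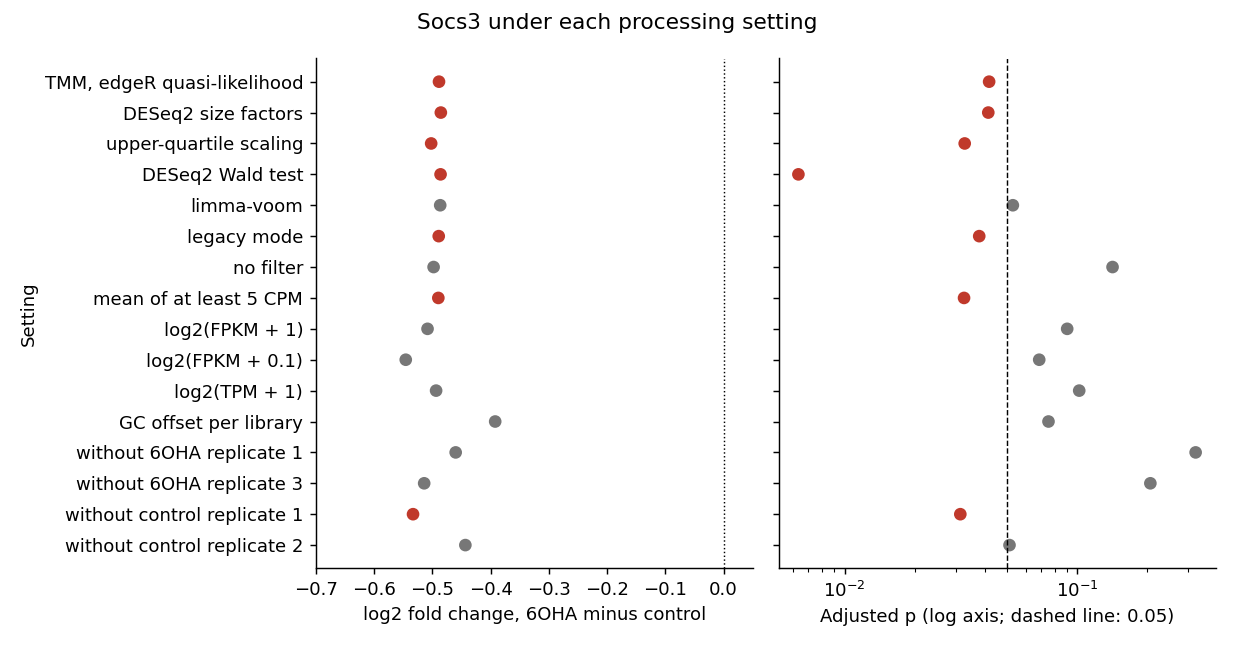
Log2 fold change of Socs3, 6OHA minus control (left), and its adjusted p on a log axis (right) under each setting, with red points where the adjusted p is under 0.05. The fold changes lie between -0.55 and -0.39 while the adjusted p runs from 0.00633 to 0.323, on both sides of the dashed line at 0.05.

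The other feedback genes among the members, Cish and Socs1, did not pass. Cish, which is induced by STAT5 and whose protein dampens STAT5 signalling, measured 8.64 and 10.96 CPM in 6OHA and 7.99 and 9.91 CPM in control. Its groups overlapped, and the log2 fold change was 0.14 (95% interval -0.24 to 0.53, edgeR adjusted p = 0.885). Socs1, an inhibitor of interferon signalling, measured 2.69 and 3.52 CPM in 6OHA and 3.36 and 2.68 CPM in control. It was the member with the fewest counts, 83 to 144 per library, and its interval was the widest of the 10, from -0.48 to 0.56 around 0.04 (adjusted p = 0.981). Socs2, a feedback gene outside the 10 and named after its values were seen, lay the other way. It measured 9.74 and 9.93 CPM in 6OHA against 6.36 and 6.51 CPM in control, with a log2 fold change of 0.61 that did not pass (SE 0.15, adjusted p = 0.0748) except with the GC offset (0.0196).

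The kinase genes did not pass. Jak1, the partner of most class II and gp130 receptors, measured 317 and 307 CPM in 6OHA and 324 and 297 CPM in control. The log2 fold change was 0.01 (95% interval -0.19 to 0.21, edgeR adjusted p = 0.992), and it lay on either side of 0 depending on the scaling. Jak2, which serves the GM-CSF and interferon gamma receptors, measured 30.3 and 28.0 CPM in 6OHA against 35.6 and 30.1 CPM in control. These groups overlapped by a narrow margin in CPM, though not in TPM, and the log2 fold change of -0.18 had an interval from -0.44 to 0.09 (adjusted p = 0.718). Tyk2, a kinase of the type I interferon and interleukin 12 receptors, measured 62.8 and 74.6 CPM in 6OHA against 74.4 and 78.6 CPM in control. Its 6OHA replicate 1 was the lowest, the other 6OHA library lay among the controls in CPM (in TPM it lay just below both), and the log2 fold change was -0.15 (interval -0.39 to 0.09, adjusted p = 0.734). A p that misses the threshold does not show that levels were alike, and these intervals leave out a halving or doubling of any of the kinase genes.

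The STAT genes did not pass either. Stat3 measured 158 and 162 CPM in 6OHA and 154 and 155 CPM in control, and Stat6 138 and 136 against 128 and 133 CPM. In both genes the 6OHA libraries lay above both controls, by log2 fold changes of 0.05 (95% interval -0.14 to 0.24, edgeR adjusted p = 0.934) and 0.07 (interval -0.13 to 0.27, adjusted p = 0.897). With Socs3 this made 3 of 10 members whose groups did not overlap in CPM, beside 38.8% of all genes tested, and Socs3 was the 1 of them lower in 6OHA, beside 20.1%. The count depends on the unit. In TPM, compared after the CPM values were seen, 4 members did not overlap, beside 38.2% of all genes tested. Of these, 3 were lower in 6OHA (Socs3, Jak2 and Tyk2), beside 21.6%, Stat6 was higher, and Stat3 overlapped. Stat5b, which carries growth hormone and GM-CSF signals, measured 49.7 and 56.3 CPM in 6OHA and 51.7 and 56.5 CPM in control (log2 fold change -0.03, interval -0.27 to 0.21, adjusted p = 0.973). Its near relative Stat5a measured 17.0 and 22.2 CPM in 6OHA and 17.3 and 22.7 CPM in control (log2 fold change -0.02, interval -0.39 to 0.34, adjusted p = 0.986).

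**Figure D3:**
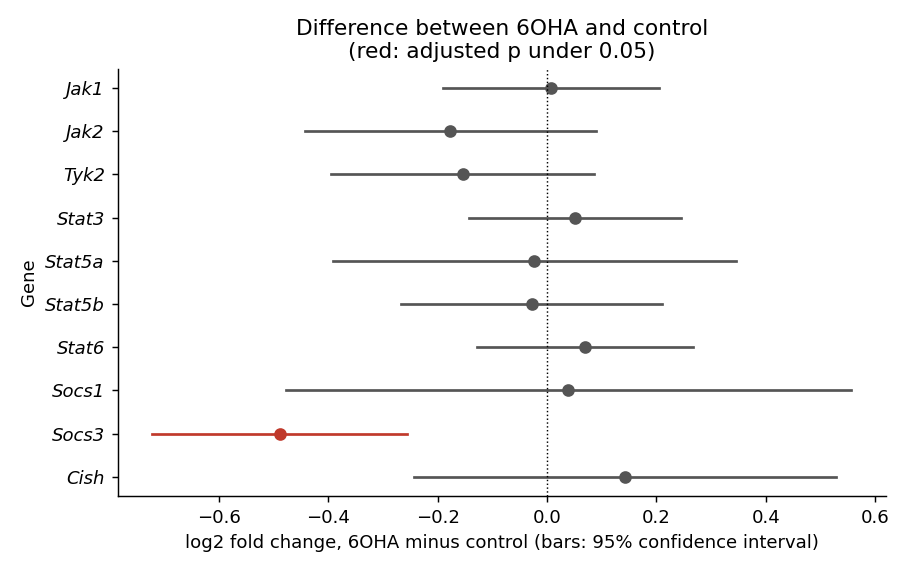
Log2 fold change of each gene, 6OHA minus control, with bars for the 95% confidence interval from edgeR's fit. The red Socs3 interval, -0.72 to -0.26, lies below 0, while the intervals of the other 9 genes include 0.

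Positions are on GRCm38.p6, the assembly that the submitters' build mm10 names. Stat3, Stat5a and Stat5b are neighbours on chromosome 11. Stat5b runs from 100780731 to 100859004 on the minus strand, Stat5a from 100859351 to 100885169 on the plus strand, and Stat3 from 100886806 to 100939594 on the minus strand. Socs3 is on the same chromosome from 117966079 to 117970336. Cish (107296659 to 107302784) and Tyk2 (21104068 to 21131393) are on chromosome 9, Jak1 is on chromosome 4 (101151974 to 101265282), Jak2 on chromosome 19 (29251803 to 29313095), Stat6 on chromosome 10 (127642955 to 127660987) and Socs1 on chromosome 16 (10783808 to 10785536). Of the distinct 31-base stretches in GENCODE M21 transcripts, Stat5a shares 11.7% and Stat5b 15.2% with other genes, 836 of them with each other, so the split of reads between this pair is uncertain. Summed, the pair measured 66.7 and 78.5 CPM in 6OHA and 69.0 and 79.2 CPM in control (log2 fold change -0.03, SE 0.11, edgeR adjusted p = 0.974). The other 8 members share under 5% of their stretches. Exons on the opposite strand cover 8.07% of the exon bases of Tyk2 (1700084C06Rik), 7.46% (Gm17041) and 4.07% (Gm17040) of those of Cish, and 72 bases shared by Stat3 and Stat5a, and the counting is not stated to use strand, so reads of these partners cannot be told apart.

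For several members the 2 libraries of a group differed more than the groups did. Stat5a was higher by 0.38 on the log2 scale in 6OHA replicate 3 than in replicate 1 and by 0.39 in control replicate 2 than in replicate 1, against a group difference of -0.02. Cish showed library differences of 0.34 and 0.31 in the same way, against a group difference of 0.14. Those of Jak2 were -0.11 in 6OHA and -0.24 in control, and its group difference of -0.18 lay between them. The group difference was smaller than the library difference in both groups for 5 of the 10 members, and in at least 1 group for 7. For 6 members replicate 1 was the lower library in both groups, for 2 it was the higher in both, and for 2 the groups were mixed. For Socs3 the library differences were 0.06 and 0.09.

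The libraries also differed with the GC content of genes. Over 11272 expressed genes, log2 CPM relative to the mean of the libraries changed by -0.08 and 0.08 per 10 percentage points of transcript GC in 6OHA replicates 1 and 3, and by -0.12 and 0.13 in control replicates 1 and 2. Mean transcript GC was 44.5% for Jak2, 57.0% for Stat5a and 64.7% for Socs3, the lowest and the highest of the members being Jak2 and Socs3. With each library's GC trend taken out, the library differences of Stat5a were 0.23 and 0.19 and those of Jak2 -0.04 and -0.10. Those of Socs3 became -0.21 and -0.34, larger than before, and its difference between groups with the GC offset was the -0.39 given above (edgeR adjusted p = 0.0752).

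**Figure D4:**
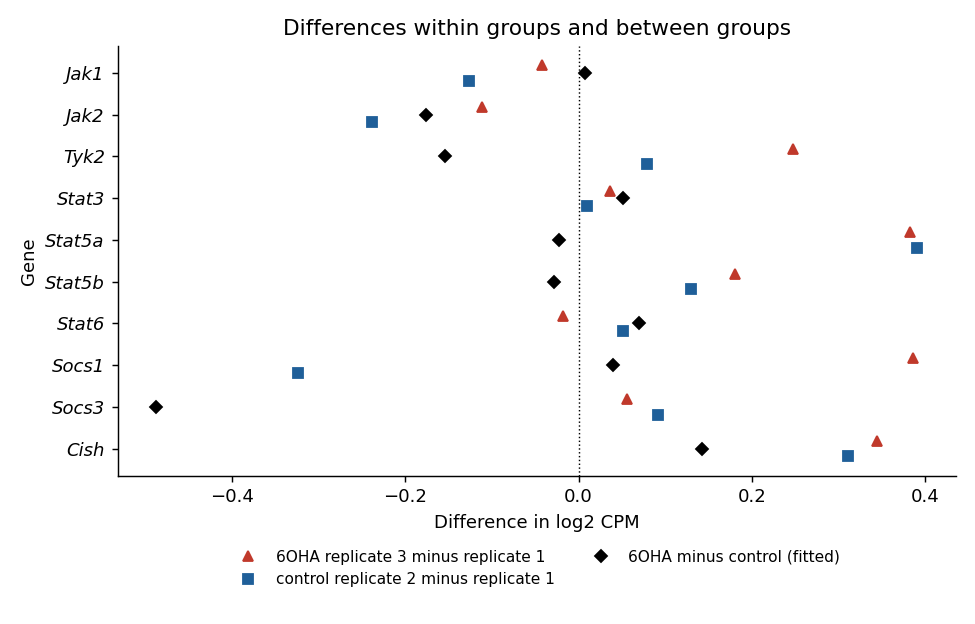
Difference in log2 CPM between the libraries of each group (red triangles and blue squares) and fitted difference between groups (black diamonds) for each gene. For Stat5a both library differences, 0.38 and 0.39, lie far from the group difference of -0.02, while for Socs3 the group difference of -0.49 is larger than the library differences of 0.06 and 0.09.

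Total counts ran from 31057950 to 42541641 per library. All 10 microglia and macrophage markers were tested, at a summed 5245 to 5433 TPM in 6OHA and 5219 to 5389 TPM in control. That sum does not show single markers, of which 7 lay below 0 in log2 fold change and 1, Cx3cr1, fell. Cx3cr1, the fractalkine receptor gene of microglia, here named after its values were seen, was at 21.2 and 21.3 CPM with 6OHA and at 38.3 and 36.2 CPM without (log2 fold change -0.81, SE 0.11, edgeR adjusted p = 0.00257), a call that held in all 15 other settings. Of other cell types, 6 astrocyte markers summed to 9.98 to 10.3 TPM in 6OHA and 14.9 to 15.1 TPM in control, with Gfap and Aqp4 at 0 counts in all libraries. The 5 neuron markers summed to 4.51 to 5.87 against 8.25 to 8.29 TPM with Rbfox3 and Syt1 at 0. Among them Map2, a cytoskeletal gene also named after its values were seen, fell from 11.2 and 10.7 CPM in control to 6.23 and 6.70 CPM in 6OHA (log2 fold change -0.76, edgeR adjusted p = 0.0273). The call of Map2 was lost when 6OHA replicate 1 (0.133), 6OHA replicate 3 (0.0620) or control replicate 1 (0.0591) was left out, with no filter (0.0924) and on FPKM and TPM values (0.288 to 0.334). The 4 endothelial markers summed to 79.2 to 80.6 against 86.1 to 97.4 TPM with Cldn5 at 0, and the 5 oligodendrocyte markers to 42.8 to 44.8 against 34.4 to 36.9 TPM with Mog, Olig2 and Sox10 at 0. The 4 fibroblast markers stayed at or under 0.0466 TPM and the 4 lymphocyte markers at or under 0.281 TPM. The part of these marker differences in the results was not tested.

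The rest of the pathway was read from lists of receptors, ligands, other brakes and STAT targets, chosen with earlier results of these data known. Over all these lists, with each gene counted once, 8 genes rose and 1, Socs3 itself, fell. With the DESeq2 test 11 rose and 3 fell, with limma-voom 7 rose and 0 fell, and with the GC offset 14 rose and 7 fell. The balance also moved with single libraries left out. How many distinct genes of these lists were tested was not counted, so these numbers are not shares. Of all 14634 genes tested, 1.39% rose, 0.629% fell and 1591 were under an unadjusted p of 0.05. Of the 9 other JAK, STAT and SOCS genes 0 passed with edgeR, and 1, Socs2, was under an unadjusted p of 0.05. Their median log2 fold change was 0.05. Socs6, an abundant member of this list, was at -0.07 (edgeR adjusted p = 0.919).

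Of 36 receptors that use JAKs, 25 were tested, 3 rose, 0 fell and 22 did not pass, with a median of 0.02. At an unadjusted p under 0.05 there were 14 of the 25, against 1591 of the 14634 genes. The groups did not overlap for 18 of the 25, beside 38.8% of all genes tested. Of the 25, 13 lay above 0 and 12 below. The receptors called numbered 6 (5 higher, 1 lower) without control replicate 2 and 7 (5 higher, 2 lower) with the GC offset, and without control replicate 1 they were 2 higher and 1 lower. Il21r, the interleukin 21 receptor that signals through JAK1 and JAK3, measured 178 and 202 CPM in 6OHA and 94.3 and 91.35 CPM in control. Both 6OHA libraries were far above both controls, 2.04-fold higher (log2 fold change 1.03, SE 0.10, edgeR adjusted p = 0.000277), and its call held in all 15 other settings. The other genes that rose encode signal chains that carry JAK2. Csf2rb, the shared beta chain of the GM-CSF, interleukin 3 and interleukin 5 receptors, measured 619 and 649 CPM in 6OHA and 458 and 482 CPM in control (a log2 rise of 0.43, SE 0.09, adjusted p = 0.0293). Csf2rb2, its mouse relative for interleukin 3, measured 343 and 351 CPM against 212 and 217 CPM (a log2 rise of 0.69, SE 0.09, adjusted p = 0.00143). Csf2rb shares 19.6% and Csf2rb2 30.1% of 31-base stretches, mostly with each other, so the split is uncertain. Summed, the pair rose by 0.52 on the log2 scale (SE 0.09, adjusted p = 0.00981). Leaving out 6OHA replicate 1 (adjusted p = 0.109), 6OHA replicate 3 (0.271) or replicate 1 of control (0.0603) ended the call of Csf2rb, which was also lost with no filter (0.107) and on FPKM and TPM values (0.0777 to 0.110).

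The other 22 receptors did not pass. Il4ra, the interleukin 4 receptor chain upstream of STAT6, measured 160.3 and 191 CPM in 6OHA and 123 and 134 CPM in control (log2 fold change 0.45, edgeR adjusted p = 0.0651). It passed without 6OHA replicate 1 (0.0231), without control replicate 2 (0.0286), with the DESeq2 test (0.00351), with the stricter 5 CPM filter (0.0494) and with the GC offset (0.00111). The interleukin 7 receptor gene Il7r measured 269 and 233 CPM in 6OHA and 338 and 299.6 CPM in control (log2 fold change -0.34, adjusted p = 0.170). It passed without control replicate 2 (0.0414) and with the GC offset (0.00807). Epor, named after its values were seen, had a fitted log2 fold change of 3.24 at 0.747, 0.315, 0 and 0.115 CPM in 6OHA replicates 1 and 3 and control replicates 1 and 2. It did not pass (adjusted p = 0.147), and this value of a gene with so few counts depends on the fit.

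Of 29 cytokine ligands, 12 had 0 counts in every library and 10 were tested, of which 0 passed with edgeR and 1 was under an unadjusted p of 0.05. The most abundant were Ebi3, a chain of interleukins 27 and 35, at 46.5 ± 1.04 CPM in 6OHA and 46.8 ± 5.84 CPM in control (SD, n = 2), and Osm, which encodes oncostatin M, at 37.5 ± 0.692 and 35.9 ± 3.20 CPM. The median of the ligands was -0.01. Of 13 other brakes on the pathway, 0 passed and 2 were under an unadjusted p of 0.05, with a median of 0.01. Ptprc, the phosphatase CD45, was at -0.07 (adjusted p = 0.925) and Cbl, a ubiquitin ligase, at 0.01 (adjusted p = 0.986). DESeq2 and limma-voom were run on the same lists, and their counts over all lists together were 14 and 7 against 9 here.

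**Figure D5:**
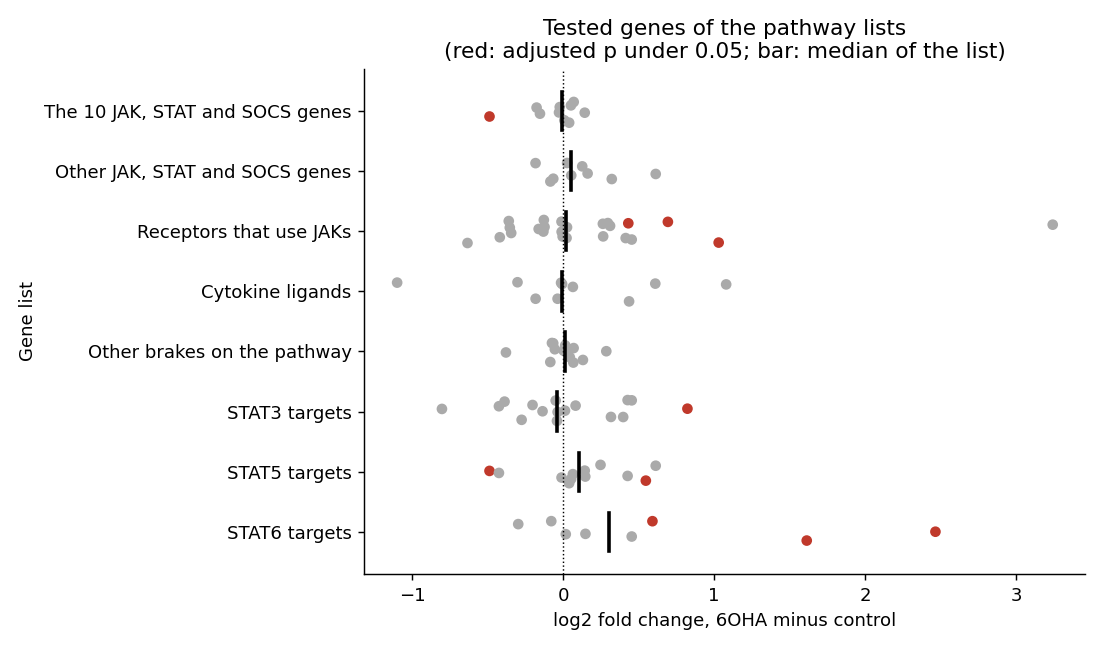
Log2 fold change, 6OHA minus control, of every tested gene of each list (points, spread vertically for legibility), with red points for an adjusted p under 0.05 and a bar at the list's median. Medians lie between -0.04 and 0.10 except for the STAT6 targets at 0.30, and the grey point at 3.24 is Epor.

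The remaining lists hold genes known as targets of single STATs. A gene can stand in more than 1 of these lists, and many of them answer to other factors too. Of 8 tested STAT6 targets, among 15 listed, 3 rose, 0 fell and 5 did not pass, with a median of 0.30. At an unadjusted p under 0.05 there were 4 of the 8, against 1591 of the 14634 genes, and 2.02% of all genes tested were called. Of the 7 not tested, 3 well-known targets, Chil3, Retnla and Ccl17, had 0 counts in every library. Those that rose were Arg1, the arginase of alternatively activated macrophages, at 10.1 and 11.3 against 1.77 and 2.13 CPM, and the neighbouring lectin genes Clec10a, at 7.92 and 8.10 against 2.98 and 2.19 CPM, and Mgl2, at 74.8 and 72.2 against 50.4 and 47.1 CPM. Their log2 fold changes were 2.47 (edgeR adjusted p = 9.52e-05), 1.61 (adjusted p = 0.00129) and 0.59 (adjusted p = 0.0102). Clec10a shares 14.8% and Mgl2 22.6% of 31-base stretches, mostly with each other. The split of reads between these lectin genes is therefore uncertain, and their sum was not tested. The call of Mgl2 was lost without 6OHA replicate 1 (0.0532) and with no filter (0.0751). Mrc1, the mannose receptor and another marker of this state, was at -0.08 (adjusted p = 0.870).

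Of 12 tested STAT5 targets, 1 rose, 1 fell and 10 did not pass, with a median of 0.10. At an unadjusted p under 0.05 there were 5 of the 12, against 1591 of the 14634 genes, and 2.02% of all genes tested were called. No call was left (0) without either 6OHA library, and without control replicate 2 the calls were 2 higher and 0 lower. Ccnd2, which encodes cyclin D2, measured 35.8 and 32.9 CPM in 6OHA and 23.8 and 23.2 CPM in control (log2 fold change 0.55, SE 0.11, edgeR adjusted p = 0.0304). Its call was lost without 6OHA replicate 1 (0.263) or 6OHA replicate 3 (0.0587), with no filter (0.133) and on FPKM and TPM values (0.199 to 0.228). The one that fell is Socs3. Bcl2l1 at 0.15 (adjusted p = 0.712) and Cdkn1a at -0.01 (adjusted p = 0.987), the most abundant of the list, did not pass.

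Of 16 tested STAT3 targets, 1 rose, 0 fell and 15 did not pass, with a median of -0.04. Socs3 was not put in this list, so its fall is not counted here. At an unadjusted p under 0.05 there were 8 of the 16, against 1591 of the 14634 genes, and 2.02% of all genes tested were called. The count of called STAT3 targets and its direction rested on single libraries and settings. With control replicate 1 left out the calls were 0 higher and 3 lower, and with control replicate 2 left out 4 higher and 0 lower. With 6OHA replicate 1 left out they were 2 higher and 1 lower, and with 6OHA replicate 3 left out 0 higher and 1 lower. The DESeq2 test gave 4 higher and 2 lower, the 5 CPM filter 3 and 1, and the GC offset 4 and 4, while there were 0 in all with limma-voom, with no filter and on FPKM and TPM values. Fos, an immediate early factor, measured 8.21 and 10.4 CPM in 6OHA and 5.06 and 5.50 CPM in control (log2 fold change 0.82, SE 0.17, edgeR adjusted p = 0.0401). Its call was lost without 6OHA replicate 3 (0.297) or control replicate 1 (0.0986), with limma-voom (0.0635), with no filter (0.164) and on FPKM and TPM values (0.132 to 0.152). Ccnd1, which encodes cyclin D1, was at -0.28 (adjusted p = 0.203, and 0.0203 with the GC offset) and the survival gene Mcl1 at -0.05 (adjusted p = 0.941).

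Among 9723 other genes with at least 5 CPM, those whose pattern over the 4 libraries lay nearest to Socs3 were Pdzrn3, Ank and Syne3. Genes with clone names of the Gm, Rik, LOC and BC kind were left out. The measure was the Euclidean distance of log2 CPM after centring each gene, 0.0129, 0.0505 and 0.0618 in this order. Their log2 fold changes were -0.49 (edgeR adjusted p = 0.205), -0.52 (adjusted p = 0.0249) and -0.44 (adjusted p = 0.105). Fold changes close to that of Socs3 follow from choosing the genes by this distance in the same libraries. The call of Ank was lost without 6OHA replicate 1 (0.175) or 6OHA replicate 3 (0.176), with no filter (0.101) and on FPKM and TPM values (0.0632 to 0.0956), and Syne3 passed with the GC offset (0.0267).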

How the data were processed

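Whole-number read counts for each gene were used as deposited, per the file headers. The FPKM and TPM values were computed by the authors and deposited beside them. Per the submitters' processing notes, reads were handled with HISAT2 2.1.0, StringTie 2.1.3b, bcl2fastq 2.20.0, SAMtools 1.9, Trimmomatic 0.38 and Bowtie2 on build mm10. Their roles and the strand setting of the counting are not given in the sources used here. Libraries were made with a stranded poly-A kit, per the labels.

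Genes were kept by filterByExpr, which left 14634 of 45777, and scaled by TMM. The test was edgeR 4.0.16's quasi-likelihood test with group as the only term, Benjamini-Hochberg adjusted over all genes tested, threshold 0.05. SEs are the coefficient over the root of F, and intervals use the fit's degrees of freedom. Alternatives were other scalings, DESeq2 1.42.0, limma 3.58.1 with voom, edgeR's legacy mode and 2 other filters (none, or a mean CPM of 5 or more). Further ones were limma on log2(FPKM + 1), log2(FPKM + 0.1) and log2(TPM + 1), an offset removing each library's lowess GC trend, and leaving out each library. Counts of Stat5a and Stat5b, and of Csf2rb and Csf2rb2, were also summed. GC content was known for 92.6% of tested genes. The test was checked on simulated counts. R 4.3.3 and Python 3.11.15 were used.

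The members and lists were chosen with earlier results of these data known. Named genes were the members, up to 4 called and the 2 most abundant tested genes of each list, and the 3 genes nearest to each called member. Counts of the replicate pairs differed beyond sampling noise (chi-square over its degrees of freedom 10.2 for 6OHA, 21.3 for control). Cells given Bex were not analysed here, and 1 abundant gene and 1 list are not reported here.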

Additional observations from a re-analysis of the deposited data

How the results depend on the processing

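No paired analysis was possible because the groups share only replicate number 1. The 1 called member became 0 with limma-voom, no filter, log2(FPKM + 1), log2(FPKM + 0.1), log2(TPM + 1) and the GC offset, and 0 to 1 with a library left out. Of all genes 295 were called, against 120 with no filter, 135 and 149 on log2(FPKM + 1) and log2(FPKM + 0.1), 152 on log2(TPM + 1), 784 with the GC offset and 265 to 500 with a library left out (500 without control replicate 2). Over the pathway lists 9 genes were called, against 14 with the DESeq2 test, 4 with no filter, 5 on each of the FPKM and TPM scales, 21 with the GC offset and 7 to 13 with a library left out. The no-filter setting tests more genes. The cause of the other shifts was not tested. When a library is left out, the lone library of its group is assumed to vary like the other group. Uncalled genes near 0 changed sign. On the log2 scale Jak1 was at -0.0055 with upper-quartile scaling, -0.0031 with no filter and -0.018 on both FPKM scales, Stat3 at -0.0036 and -0.0038 on the FPKM scales, Stat5a at 0.0014 with the GC offset, Ebi3 at 0.00027 with limma-voom and 0.029 with the GC offset, and Cbl at -0.011 on both FPKM scales. With a library left out the ranges were -0.17 to 0.22 for Socs1, -0.043 to 0.30 for Cish, -0.055 to 0.073 for Jak1, -0.23 to 0.18 for Stat5a, -0.12 to 0.060 for Stat5b, -0.14 to 0.018 for Socs6, -0.13 to 0.12 for Ebi3, -0.025 to 0.16 for Osm, -0.19 to 0.075 for Ptprc, -0.12 to 0.16 for Cbl, -0.13 to 0.040 for Mcl1 and -0.041 to 0.019 for Cdkn1a. Depth limits Socs1 most, which has no value with the 5 CPM filter, and intervals cover the spread between these libraries.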
